A study of Mus musculus with 2 samples.

Results

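The genes described here are 51 mouse genes whose transcripts gather in G2 and mitosis, the phases in which a cell checks its copied DNA and then divides. They were chosen by symbol from the G2/M list distributed with the Seurat toolkit, and each symbol matched 1 of the 31053 genes in the deposited tables. The rule uses symbols and no measured value. The members lie on 18 chromosomes, and 38 of them overlap no other annotated gene on their own strand. For the other 13, mostly overlapped by small RNAs or predicted genes, counts from the overlap could not be divided between the genes.

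Single cells came from dissected eye cups of newborn mice at postnatal day 0, in 1 library per genotype, each made from 3 pooled eye cups. The control library was from Myrf fl/fl mice and the mutant library from Rx>cre Myrf fl/fl mice. Both genotypes carried floxed Myrf, and the mutants also carried cre recombinase under control of Rx sequences. Rx is used in the eye field, which forms the neural retina and the retinal pigment epithelium (RPE). Blood, vessels, mesenchyme and surface epithelium do not descend from that field. With 1 library per genotype there is no measure of the spread between animals, so no difference between genotypes was tested. Each interval below is a 95% interval for counting error only.

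The deposited matrices held 14305 control and 12222 mutant cell barcodes, with 79017429 and 76272867 unique molecular identifiers (UMIs, counted transcripts). After removal of low-quality cells and predicted doublets, 12485 control and 10813 mutant cells remained, with medians of 4272 and 4821 UMIs. Clustering without the listed cell cycle genes gave 35 clusters, of which 30 could be named from marker genes, as classes such as retinal progenitor-like. Myrf itself was at 228 CPM (counts in each 1e6 UMIs) in control and 25.9 CPM in mutant RPE-like cells, from 745 and 64 UMIs. Retinal progenitor-like cells had only 23 and 15 Myrf UMIs. The libraries also differed in sex mix. Among all kept cells, those with UMIs of Xist but none of a Y-linked gene made up 7.14% of the control and 70.5% of the mutant library. Only 59 barcodes occurred in both libraries. The unnamed cells, 1877 in the control and 731 in the mutant, held 6.70% and 1.81% of the member UMIs and enter no class below. They included a shallow cluster of 847 control and 326 mutant cells, with medians of 1053 and 904.5 UMIs, and a very unequal cluster of 662 and 32 cells with Col1a1 and Tnxb among its leading genes.

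Passage through G2 and mitosis needs the kinase Cdk1 bound to a B-type cyclin, motors and microtubule binders that build the spindle, kinetochores that hold chromosomes to it, and a ubiquitin ligase that ends mitosis by destroying the cyclins. Most of these genes are silent in resting cells and are switched on together late in the cycle by the MuvB complex with B-Myb and FoxM1, helped by the factor NF-Y. In the newborn mouse retina, progenitors still divide and produce late-born types such as rods, whereas postmitotic neurons have left the cycle. The RPE divides little by this age.

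The known switch for these genes reads short DNA motifs close to the start of transcription, so the members' promoters were examined for them. RefSeq promoters of mouse build GRCm38.p6, from 250 bases before to 50 bases after the annotated start, were at hand for 45 of the 51 members and 27025 genes in all. Those of Aurkb, Cdc25c, Smc4, Dlgap5, Cdca2 and Tpx2 were not used here. The CCAAT box, bound by NF-Y, stood in 35 of 45 member promoters (77.8%) against 37.9% of all promoters, and at least 2 such boxes stood in 62.2% against 12.2%. The cell cycle genes homology region (CHR), searched as TTTGAA or TTTAAA on both strands, was also in 35 member promoters (77.8%) against 27.8% of all. Both motifs together were in 29 (64.4%) against 10.9%, and against 7.86% of the 10469 genes with a promoter that were measured in retinal progenitor-like cells. Their place differed as well. A CCAAT box lay in the last 50 bases before the start in 62.2% of members and 9.44% of all promoters. A CHR lay in the first 50 bases after it in 40.0% of members and 3.23% of all.

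The forkhead motif TGTTTA, read by FoxM1 and other forkhead factors, was in 7 of 45 member promoters (15.6%) and 13.4% of all. Among genes measured in retinal progenitor-like cells it was in 8.07%. The E2F motifs differed from each other: TTGGCGC was in 11.1% of member promoters, 2.54% of all and 4.64% of the genes measured in retinal progenitor-like cells, and TTCCCGC in 0 of 45, 4.66% and 8.75%. The MYB motif AACNG, short enough to occur almost anywhere, was in 91.1% and 80.4%. Of the 45 members, Nusap1 alone had none of the motifs searched. A match describes the letters in this window and is not evidence of binding.

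**Figure D1:**
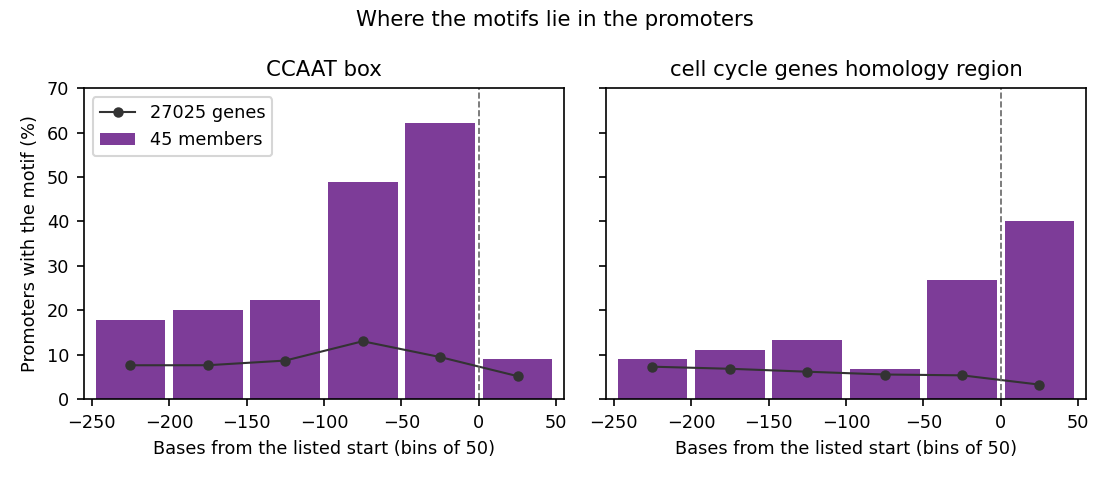
Share of promoters with a CCAAT box (left) or a CHR (right) starting in each 50-base bin, against the distance of the bin from the annotated start, for the 45 members and for all 27025 genes. The members peak at 62.2% in the last 50 bases before the start for the CCAAT box and at 40.0% in the first 50 after it for the CHR, where all genes reach 9.44% and 3.23%.

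The stretch of 150 bases that ends 5 bases before the start is printed for members on which the results below turn, to show how the motifs are laid out. Each is written 5′ to 3′ along the gene's own strand, from RefSeq on GRCm38.p6, with capitals marking a CCAAT box or its reverse ATTGG, and the CHR motif TTTGAA or its reverse TTCAAA, or TTTAAA, which is its own reverse. The first group holds genes of the mitotic kinase and of chromosome structure: Cdk1, Ccnb2, Top2a and Mki67.
Cdk1, chr10:69352917-69353066, minus strand: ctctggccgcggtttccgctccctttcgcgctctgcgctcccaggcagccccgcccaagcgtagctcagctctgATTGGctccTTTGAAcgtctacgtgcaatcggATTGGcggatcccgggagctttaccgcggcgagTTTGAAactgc
Ccnb2, chr9:70421559-70421708, minus strand: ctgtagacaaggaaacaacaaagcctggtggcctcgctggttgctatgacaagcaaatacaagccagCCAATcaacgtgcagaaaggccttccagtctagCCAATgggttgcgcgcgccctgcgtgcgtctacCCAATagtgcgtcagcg
Top2a, chr11:99024194-99024343, minus strand: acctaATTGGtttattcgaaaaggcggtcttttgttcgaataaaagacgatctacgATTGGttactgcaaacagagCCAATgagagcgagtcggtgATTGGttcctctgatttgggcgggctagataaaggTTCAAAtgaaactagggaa
Mki67, chr7:135716384-135716533, minus strand: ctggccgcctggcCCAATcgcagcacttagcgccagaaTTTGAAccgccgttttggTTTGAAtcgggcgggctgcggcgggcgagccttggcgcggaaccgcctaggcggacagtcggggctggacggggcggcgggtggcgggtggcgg
Cdk1, which encodes the mitotic kinase, has 2 CCAAT boxes and 2 CHR motifs in this stretch. Ccnb2, its cyclin partner, has 3 CCAAT boxes at even spacing, and its CHR motifs fall outside the stretch. Top2a, the enzyme that untangles sister DNA, has 4 CCAAT boxes and 1 CHR, and Mki67, whose protein coats mitotic chromosomes, has 1 and 2.

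The second group holds the partners that end mitosis, Ube2c and Cdc20, and the chromatin genes Hmgb2 and Anp32e, shown because their levels below differ in how closely they follow division.
Ube2c, chr2:164769775-164769924, plus strand: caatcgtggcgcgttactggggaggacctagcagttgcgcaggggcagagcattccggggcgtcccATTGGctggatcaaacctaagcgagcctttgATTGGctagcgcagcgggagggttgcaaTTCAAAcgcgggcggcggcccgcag
Cdc20, chr4:118437348-118437497, minus strand: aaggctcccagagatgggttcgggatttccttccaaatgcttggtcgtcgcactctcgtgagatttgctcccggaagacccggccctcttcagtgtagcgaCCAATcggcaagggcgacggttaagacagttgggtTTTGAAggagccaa
Hmgb2, chr8:57511689-57511838, plus strand: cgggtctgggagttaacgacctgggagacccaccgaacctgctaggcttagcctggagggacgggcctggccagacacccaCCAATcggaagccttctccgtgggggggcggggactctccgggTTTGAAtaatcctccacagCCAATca
Anp32e, chr3:95929103-95929252, plus strand: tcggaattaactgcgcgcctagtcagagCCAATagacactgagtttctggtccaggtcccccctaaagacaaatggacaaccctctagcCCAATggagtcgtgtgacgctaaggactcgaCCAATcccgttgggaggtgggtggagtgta
Ube2c has 2 CCAAT boxes and 1 CHR here, Cdc20 has 1 of each, and Hmgb2 has 2 and 1. Anp32e, a histone chaperone gene made in many resting cells, has 3 CCAAT boxes in this stretch, and its CHR motif falls outside it. In the measure of timing described below, the median fold was 3.37 in the control and 3.46 in the mutant for the 29 members with both motifs. For the 16 others, most of which had a CCAAT box or a CHR alone, it was 3.37 and 3.67. In the control the folds ranged from 1.5 to 7.95 with both motifs and from 0.987 to 4.92 among the others.

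The first question was where in the eye cup the members were made. Retinal progenitor-like cells, 4182 in the control and 4855 in the mutant, held 65% and 70.8% of all member UMIs. Neurogenic-like cells, marked by Neurog2 and other genes of the step from progenitor to neuron, held 15.4% and 17.1%. RPE-like cells held 1.19% and 0.934%. As a sum per class, the members took 16419 CPM in control and 15464 CPM in mutant retinal progenitor-like cells, and 9344 and 9710 CPM in neurogenic-like cells. In photoreceptor-like cells, neurons past their last division, the sum was 2227 and 2491 CPM, and in amacrine-like cells 1504 and 1576 CPM.

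To compare classes of unequal depth, each cell was thinned to 1000 UMIs and shallower cells were left out. At that depth 90.1% of control and 92.1% of mutant retinal progenitor-like cells had at least 2 member UMIs (99.8% in both libraries without thinning, where cells had medians of 4526 and 4758 UMIs). The share was also high in cells that should not divide, at 60.1% and 66.4% of photoreceptor-like cells, with medians of 2910 and 3269 UMIs before thinning. The list includes 10 members that, as background knowledge has it, resting cells make too: Hmgb2, Tmpo, Anp32e, Tubb4b, Rangap1, Cbx5, Lbr, Ckap5, Cks1b and Smc4. Without those 10, that is for the 41 restricted members, the share was 60.6% (59.1 to 62.1) in control and 60.8% (59.4 to 62.1) in mutant retinal progenitor-like cells. It was 31.8% (29.8 to 33.9) and 33.1% (31.0 to 35.1) in neurogenic-like cells, 10.7% (8.47 to 13.3) and 12.8% (10.5 to 15.4) in photoreceptor-like cells, and 6.68% (4.70 to 9.17) and 6.02% (4.39 to 8.03) in amacrine-like cells. The amacrine and photoreceptor shares are read as background.

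Outside the neural retina, the 41 restricted members were above that background in blood and endothelial-like cells of the control. There, at least 2 of their UMIs were found in 44% (37.5 to 50.6) of white blood-like, 33.9% (25.3 to 43.3) of red blood-like and 32.7% (28.1 to 37.7) of endothelial-like cells. Neighbouring intervals in that order overlap, so the order is not set. RPE-like cells followed at 21.5% (17.5 to 25.8) and surface epithelium-like cells at 20% (13.5 to 27.9), again with overlapping intervals. Mesenchyme-like cells, at 7.39% (6.06 to 8.89), and pericyte-like cells, at 8.33% (3.42 to 16.4), overlapped the intervals of the neurons. In the mutant the blood, endothelial-like and RPE-like classes were fewer in cells and deeper in UMIs. Their shares were 24.6% (14.8 to 36.9) of white blood-like, 19.3% (13.5 to 26.2) of endothelial-like, 15.7% (8.61 to 25.3) of red blood-like and 13.1% (8.65 to 18.7) of RPE-like cells. The intervals of all of these overlap that of mutant photoreceptor-like cells (10.5 to 15.4) and lie above that of mutant amacrine-like cells (4.39 to 8.03). Melanocyte-like and astrocyte-like cells, with fewer than 50 cells in a library, were left out of the genotype comparisons. Melanocyte-like cells stood at 45.5% (32.0 to 59.4) of 55 thinned control cells and 31.6% (12.6 to 56.6) of 19 mutant ones. Astrocyte-like cells stood at 29.0% (14.2 to 48.0) of 31 and 30.3% (15.6 to 48.7) of 33.

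**Figure D2:**
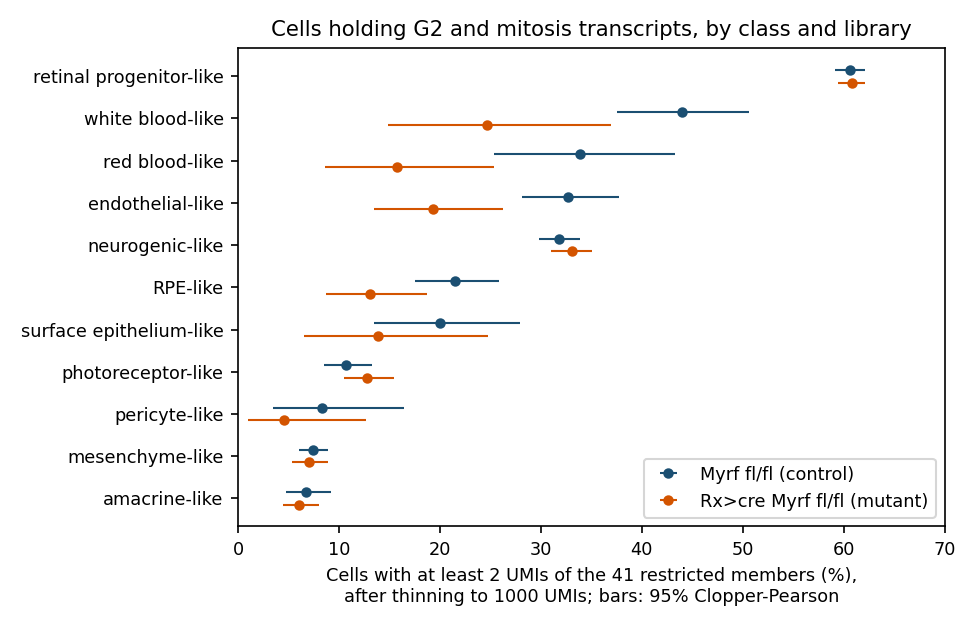
Share of cells with at least 2 UMIs of the 41 restricted members, after thinning to 1000 UMIs, by class, for the control and mutant library, with 95% Clopper-Pearson intervals for counting error. Retinal progenitor-like cells stand highest in both libraries at 60.6% and 60.8%, and amacrine-like cells lie at 6.68% and 6.02%.

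Within the classes the members were unevenly spread over clusters. Of the 4 retinal progenitor-like clusters, the 1 led by Ube2c, Pif1, Fam83d and Tuba1c had the members at 35530 CPM in the control (653 cells) and 32913 CPM in the mutant (818 cells). A cluster led by histone genes followed at 21368 and 19642 CPM, and the other 2 lay between 6077 and 6498 CPM. Although all cell cycle lists were left out of the clustering, cycle phase still divided the progenitors.

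The members did not fall equally from progenitors to photoreceptors. The summed level was 7.37 times as high in retinal progenitor-like as in photoreceptor-like cells in the control (7.17 to 7.58) and 6.21 times in the mutant (6.06 to 6.36). Of the 51 members, 44 in the control and 43 in the mutant were at least 4-fold higher in the progenitors, with 1 CPM added to each level, where 7.15% and 7.84% of all measured genes were. The median fold over members was 14.7 in the control and 12.5 in the mutant. The summed log2 contrast, 2.88 and 2.63, fell to 2.28 and 2.15 when predicted doublets were left in, and was 3.91 and 3.61 over the 41 restricted members.

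Among the kinases and their partners (9 members, median 17.2-fold in the control), Cdk1 was at 445 CPM in control retinal progenitor-like and 20.3 CPM in photoreceptor-like cells, and at 416 and 28.5 CPM in the mutant. That is 21.9-fold (16.5 to 29.8) and 14.6-fold (11.8 to 18.4). Ccnb2 stood at 171 against 9.95 CPM, 17.2-fold, in the control and at 167 against 13.2 CPM, 12.7-fold, in the mutant. Cks2, a small subunit that docks the kinase on its substrates, was at 830 against 79.1 CPM and 708 against 82.7 CPM, 10.5-fold and 8.56-fold. Cdc25c, the phosphatase that switches Cdk1 on, had the highest fold of all members, 40.5 (11.2 to 335) in the control and 34.0 (11.6 to 165) in the mutant, but from 2 and 3 photoreceptor UMIs. Cks1b, a relative of Cks2 that also serves in the G1 to S step, had the smallest fold of the group, 4.22 and 4.76.

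Of the ubiquitin ligase parts (4 members, median 18.7-fold), Ube2c, the enzyme that hands ubiquitin to the anaphase-promoting complex, fell from 724 to 35.5 CPM in the control and from 584 to 46.5 CPM in the mutant between these classes. Cdc20, the activator of that complex in mitosis, went from 281 to 14.7 CPM and from 237 to 16.0 CPM. Cdca3, a trigger of mitotic entry, went from 293 to 16.0 CPM and from 259 to 25.7 CPM. Each of these 3 was at least 10-fold higher in progenitors in both libraries.

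The centromere and passenger complex genes had the highest median fold of the groups in the control (9 members, 20.9-fold), but not in the mutant, where it was 12.7 beside 16.7 for spindle genes. Ndc80, the kinetochore protein that grips microtubules, was at 72.4 CPM in control progenitors and 2.16 CPM in photoreceptors, the latter from 5 UMIs, giving 33.5-fold with a wide interval of 14.3 to 103. The mutant values were 68.7 and 3.13 CPM, 22.0-fold (11.5 to 48.1). Birc5, which encodes the passenger protein survivin, was at 561 against 26.4 CPM, 21.3-fold, and at 494 against 40.3 CPM, 12.3-fold. Cenpf, a protein of the outer kinetochore, was at 435 against 20.8 CPM, 20.9-fold, and at 416 against 24.0 CPM, 17.4-fold. Hjurp, the chaperone of the centromere histone, stood apart in this group at 3.85-fold and 2.99-fold.

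Spindle genes and motors (15 members, median 13.9-fold) ranged widely. The highest in the control was Gtse1, which regulates mitotic microtubules, at 38.8-fold (6.91 to 1536) there and 25.1-fold (6.90 to 208) in the mutant, from 1 and 2 photoreceptor UMIs. Nusap1, which bundles spindle microtubules, was 18.6-fold higher in control and 13.5-fold higher in mutant progenitors. Tubb4b, a beta tubulin also used in cilia and neurites, was 4.91-fold and 4.00-fold higher, and Ckap5, a microtubule polymerase needed in all cells, 1.61-fold (1.38 to 1.88) and 1.36-fold (1.20 to 1.55). The cytokinesis genes lay in a narrower band, with 12.3-fold and 9.54-fold for Ect2, which opens the cleavage furrow, and 17.5-fold and 21.1-fold for Kif23, the motor of the midzone.

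Among the chromatin members (8, median 7.81-fold), Mki67 at 259 against 12.5 CPM (20.6-fold) and Top2a at 593 against 36.8 CPM (16.1-fold) were at the restricted end in the control, with 13.2-fold and 17.9-fold in the mutant. Hmgb2, a DNA-bending protein, was at 5074 against 596 CPM and 4867 against 747 CPM, 8.52-fold and 6.52-fold. It supplied 103796 of the 335844 member UMIs in control retinal progenitor-like cells, so summed levels lean on it. Cbx5, heterochromatin protein 1 alpha, was 2.20-fold and 2.36-fold higher, and Anp32e was nearly level, at 370 against 330 CPM, 1.12-fold (1.04 to 1.21), in the control and 388 against 322 CPM, 1.21-fold (1.13 to 1.29), in the mutant. The nuclear envelope genes were the least restricted group (3 members, median 3.58-fold): Lbr, which ties heterochromatin to the envelope, at 3.85-fold and 3.86-fold, Tmpo, a lamina binder, at 3.58-fold and 3.07-fold, and Rangap1, which drives nuclear transport, at 2.11-fold and 1.81-fold.

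**Figure D3:**
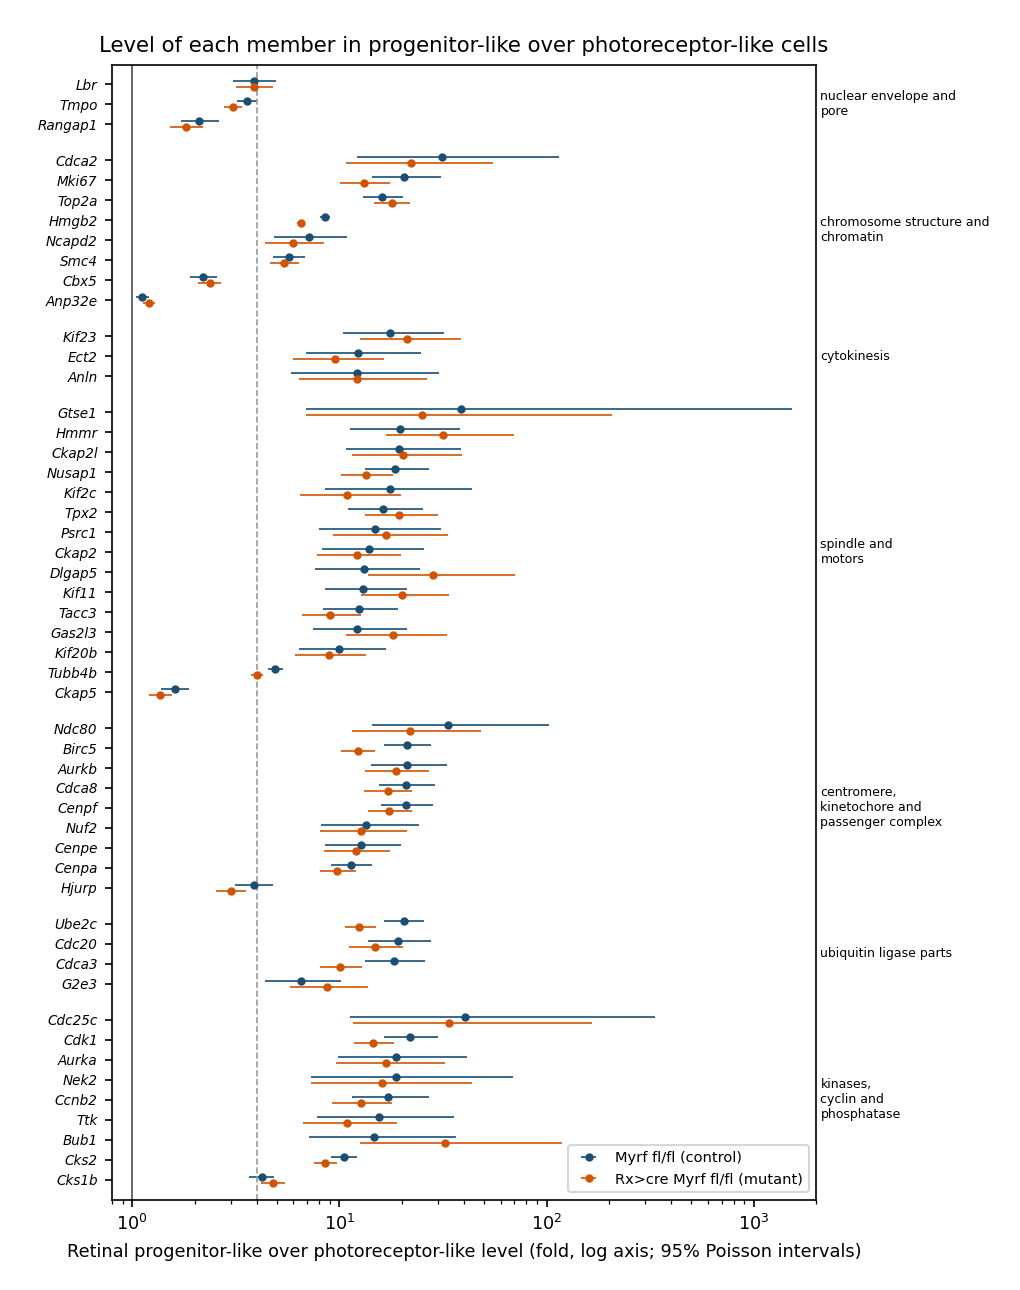
Level of each of the 51 members in retinal progenitor-like cells over that in photoreceptor-like cells (fold, log axis), grouped by role, for both libraries, with 95% intervals for counting error. Most members lie above 4-fold and the envelope genes lie below it, with Anp32e nearest to no difference at 1.12-fold in the control.

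Whether each member was in fact highest in dividing cells was measured within the progenitors. Cells with at least 1 UMI of Plk1, Ccnb1, Kif20a or Prc1, mitosis genes that are not members, formed a mitosis gate. Cells with at least 2 UMIs of 42 S phase genes and none of those 4 formed an S gate. The mitosis gate took 27.5% (26.2 to 28.9) of control and 27.7% (26.5 to 29.0) of mutant retinal progenitor-like cells, and 14.1% (12.6 to 15.7) and 14.6% (13.1 to 16.2) of neurogenic-like cells. It held 52.2% and 52.3% of the member UMIs of the progenitors, with means of 26.8 and 25.5 member UMIs in a cell of 1000. A gate is a range of cells and not a cell type. Of the mitosis-gate cells, 645 of 1148 in the control and 809 of 1345 in the mutant lay at its limit, with exactly 1 UMI of the 4 genes.

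In retinal progenitor-like cells, 50 of the 51 members were higher in the mitosis gate than in the S gate in both libraries. With 1 CPM added, 45 in the control and 46 in the mutant were at least 2-fold higher, where 2.73% and 2.64% of all measured genes were. The median fold was 3.37 and 3.53. Aurka, the kinase of the spindle poles, had the largest fold in the control, at 152 against 19.1 CPM, 7.95-fold (5.70 to 11.3), with 5.75-fold (4.43 to 7.52) in the mutant. Ube2c was at 1382 against 186 CPM, 7.42-fold (6.67 to 8.27), in the control and at 1219 against 151 CPM, 8.05-fold (7.25 to 8.95), in the mutant. Cdc25c, the phosphatase that frees Cdk1 from its brake, was 7.29-fold (4.49 to 12.3) and 5.30-fold (3.59 to 7.96) higher, from 78 and 90 UMIs in the gate. These 3 intervals overlap in the control, so the order at the top is not set.

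The middle of the list held Ccnb2 at 4.24-fold and 4.29-fold, Cdk1 at 2.93-fold and 3.1-fold, Mki67 at 2.93-fold and 2.86-fold and Top2a at 2.81-fold and 2.73-fold. In the control S gate, Cdk1 had 611 UMIs, Mki67 327 and Top2a 854. At the low end stood Anp32e at 1.56-fold and 1.72-fold, Tmpo at 1.5-fold and 1.58-fold, and Cbx5 at 0.987-fold (0.833 to 1.17) and 0.980-fold (0.848 to 1.13). Cbx5 thus carried no excess in the mitosis gate over the S gate of the progenitors at this depth. Against progenitors of neither gate it was higher in the mitosis gate, at 181 against 89.4 CPM in the control and 207 against 118 CPM in the mutant. In neurogenic-like cells its fold of mitosis gate over S gate was 1.10 (0.787 to 1.53) in the control and 1.64 (1.21 to 2.20) in the mutant. By role, the median fold in the control was 4.46 for ubiquitin ligase parts, 4.06 for kinases, 3.59 for spindle genes, 3.49 for centromere genes, 3.2 for cytokinesis genes, 2.38 for chromatin genes and 1.69 for envelope genes.

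In neurogenic-like cells, all 51 members were higher in the mitosis gate in both libraries. Of 50 with enough UMIs, 43 in control and 47 in mutant cells were at least 2-fold higher, where 5.52% and 5.09% of all measured genes were. The median over all members was 4.14-fold and 3.47-fold. Apart from Cbx5, the direction of each member in neurogenic-like cells was therefore the same as in the progenitors.

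**Figure D4:**
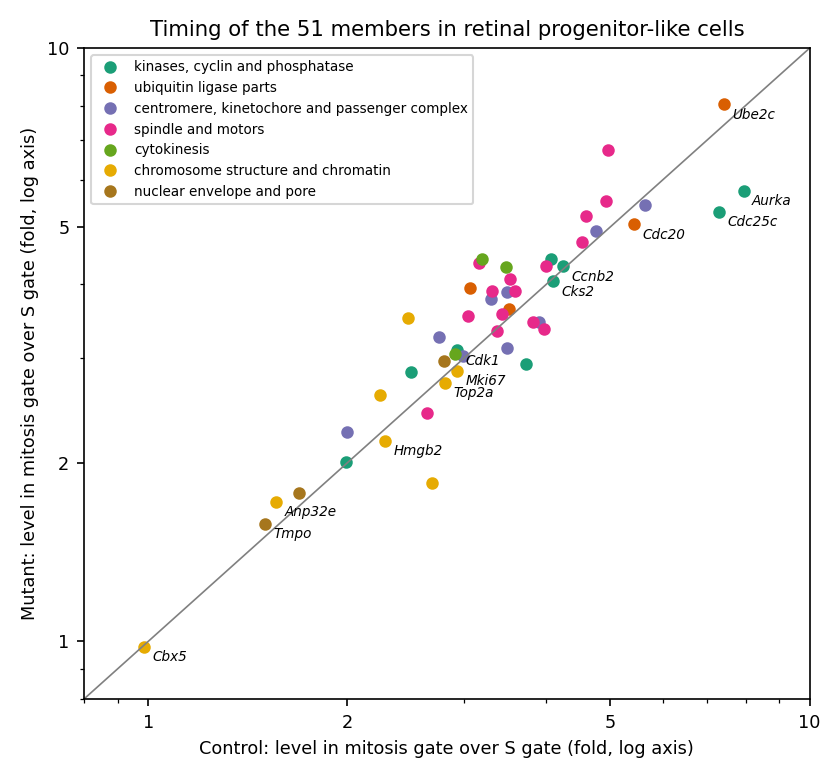
Level of each of the 51 members in mitosis-gate over S-gate cells within retinal progenitor-like cells (fold, log axes), control library across and mutant library up, coloured by role, with a line of equal fold. Aurka, Ube2c and Cdc25c are highest in the control at 7.95, 7.42 and 7.29, and Cbx5 lies at 0.987.

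The next question was whether deletion of Myrf in the eye field came with another level of these genes. Over all kept cells the members summed to 7503 and 8522 CPM, a log2 ratio of 0.18, beside shares of retinal progenitor-like cells of 33.5% and 44.9%, and none was 1.5-fold or more higher or lower, where 0.935% and 3.24% of all measured genes were. In retinal progenitor-like cells the members differed little between genotypes. Their sum was 16419 CPM in control and 15464 CPM in mutant cells, a log2 ratio of mutant over control of -0.09 (-0.09 to -0.08), or -0.06 after thinning and -0.44 in the 127 control and 110 mutant cells with at most 2000 UMIs. None of the 51 members was 1.5-fold or more higher and none 1.5-fold or more lower, where 1.35% and 1.90% of all measured genes were. In cells with at most 2000 UMIs, 7 of 43 measured members were higher and 14 lower, where 22.5% and 11.2% of measured genes were. Member ratios ran from -0.31 to 0.24 on the log2 scale, with 17 above 0 and 34 below and a median of -0.04, beside 0.05 over all genes.

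The lowest ratios were those of Ube2c, Cdc20 and Cks2. Ube2c was at 724 CPM in control and 584 CPM in mutant cells, a log2 ratio of -0.31. Cdc20 was at 281 and 237 CPM (-0.24), and Cks2 at 830 and 708 CPM (-0.23). Birc5, at 561 and 494 CPM, had -0.18. At the other end, Cbx5 was at 173 and 204 CPM (0.24), Ttk, the spindle checkpoint kinase, at 53.5 and 60.3 CPM (0.17), and Lbr at 121 and 134 CPM (0.14). The common proliferation markers lay between, with Mki67 at 259 and 252 CPM (-0.04), Top2a at 593 and 615 CPM (0.05), Cdk1 at 445 and 416 CPM (-0.10) and Ccnb2 at 171 and 167 CPM (-0.04). All these differences are under the 1.5-fold limit, and without replicates they cannot be told apart from variation between libraries.

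The sex mix of the libraries moved with this result. Among retinal progenitor-like cells with Xist alone, 83 in the control and 3542 in the mutant, the summed log2 ratio was 0.16, with 4 of 51 members 1.5-fold or more higher, where 23.0% of measured genes were. Among those with Y-linked UMIs alone, 2421 and 684 cells, it was -0.27, with 2 of 51 lower, where 4.58% of genes were. Ube2c turned from -0.31 to 0.42, Cdc20 to 0.12, Cks2 to 0.20 and Cdk1 to 0.04 in the first set. The direction of the small difference in progenitors thus rested on which cells were compared, and the part of the sex mix in it was not tested beyond these values.

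Within the gates the ratios were also small. In mitosis-gate progenitors the members summed to 26823 CPM in control and 25503 CPM in mutant cells, a log2 ratio of -0.07 (-0.10 to -0.05), and none of the 51 passed 1.5-fold in either direction, where 8.41% of measured genes were higher and 3.99% lower. There Ube2c had 1382 and 1219 CPM (-0.18), Cks2 1544 and 1274 CPM (-0.28), Cdc20 505 and 425 CPM (-0.25) and Ttk 93.2 and 121 CPM (0.38, from 107 and 163 UMIs). In S-gate progenitors the sum had a log2 ratio of -0.06 (-0.08 to -0.03), with none past 1.5-fold, where 5.58% of measured genes were higher and 2.83% lower. In cells of neither gate 1 of 47 measured members was higher and 5 lower, where 10.3% and 6.46% of genes were. The S gate itself took more of the mutant cells, 62.0% (60.6 to 63.4) against 56.6% (55.1 to 58.1), and the cells in neither gate fewer, 10.3% (9.42 to 11.1) against 15.8% (14.7 to 17.0).

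Genes of the same pathway outside the members gave a comparison. The 38 other mitosis genes, among them Plk1 and Ccnb1, summed to 5233 CPM in control and 4991 CPM in mutant retinal progenitor-like cells (-0.07), with none past 1.5-fold. The 21 regulators of mitosis genes, such as Foxm1, Mybl2 and Lin54, had 909 and 937 CPM (0.04), also with none past it. The 20 genes of cell cycle exit and G1 had 7011 and 7117 CPM (0.02), with 1 lower by 1.5-fold or more. The 42 S phase genes stood higher in the mutant, at 4367 and 5011 CPM (0.20). Of them 1 was higher by 1.5-fold or more and 0 lower, where 1.35% and 1.90% of all measured genes were. The S gate is set by these same genes, so its larger share in the mutant is not a separate result.

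In neurogenic-like cells the sum was 9344 CPM in control and 9710 CPM in mutant cells, a log2 ratio of 0.06 (0.04 to 0.07), or 0.12 after thinning. No member was 1.5-fold or more higher or lower, where 2.26% and 2.66% of all measured genes were. Counts changed with the cells used, for members and for all genes. After thinning 5 of 51 members were higher, where 6.0% of genes were. In cells with Xist alone 13 of 51 were higher, a share below the 28.2% of all genes. In cells with at most 2000 UMIs 1 of 25 measured members was higher and 17 were lower, where 15% and 14.1% of genes were. The sign of the sum was not firm, since it was -0.10 in cells with at most 5% mitochondrial UMIs and -0.90 in the 139 control and 74 mutant cells with at most 2000 UMIs. Of the 51 ratios 37 were above 0 and 14 below, from -0.25 to 0.35, with a median of 0.08 beside 0.04 over all genes. The lowest were again led by Ube2c, at 382 and 322 CPM (-0.25), followed by Nusap1 at 160 and 145 CPM (-0.14) and Psrc1, a spindle and midzone protein, at 23.9 and 22.2 CPM (-0.10). The highest were Cdc25c at 17.3 and 22.3 CPM (0.35, from 147 and 216 UMIs), Ckap2l, a spindle protein of neural progenitors, at 40.1 and 51.5 CPM (0.35) and Cdca2, which steers a phosphatase to chromosomes, at 24.3 and 30.3 CPM (0.31). Mki67 was at 111 and 126 CPM (0.19) and Top2a at 333 and 379 CPM (0.19), whereas Cdk1 at 254 and 250 CPM (-0.02) and Ccnb2 at 85.6 and 88.4 CPM (0.05) were nearly level.

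In the mitosis gate of neurogenic-like cells the members summed to 26072 and 24869 CPM (-0.07, -0.11 to -0.02), with 4 of 51 higher by 1.5-fold or more and none lower, where 12.3% and 8.15% of measured genes were. Ube2c was at 1312 and 1040 CPM (-0.33) and Cdc20 at 570 and 409 CPM (-0.48), from 159 and 122 UMIs. In the S gate the sum was 7346 and 8180 CPM (0.16, 0.10 to 0.21), with 8 of 47 measured members higher and 1 lower, where 9.49% and 6.19% of genes were. In cells of neither gate 1 of 34 was higher and 1 lower, where 7.49% and 5.65% of genes were. The S gate also took more of the mutant cells here, 34.2% (32.2 to 36.3) against 28.4% (26.4 to 30.4). Over the whole class the 42 S phase genes summed to 2094 and 2612 CPM (0.32). Of them 4 were higher by 1.5-fold or more and 0 lower, where 2.26% and 2.66% of all measured genes in the class were. Those genes set the S gate, so its share and their sum are not separate results. Ube2c was named as the lowest member in retinal progenitor-like and in neurogenic-like cells. Cdc20, Cks2 and Ttk were named as extremes of the progenitors. The gates hold cells of those classes, so the values of these genes within them describe the same cells again. In neurogenic-like cells of neither gate Ube2c was at 43.7 and 61.0 CPM (0.47). In neurogenic-like cells with Xist alone its log2 ratio was 0.71, from 44 control cells.

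**Figure D5:**
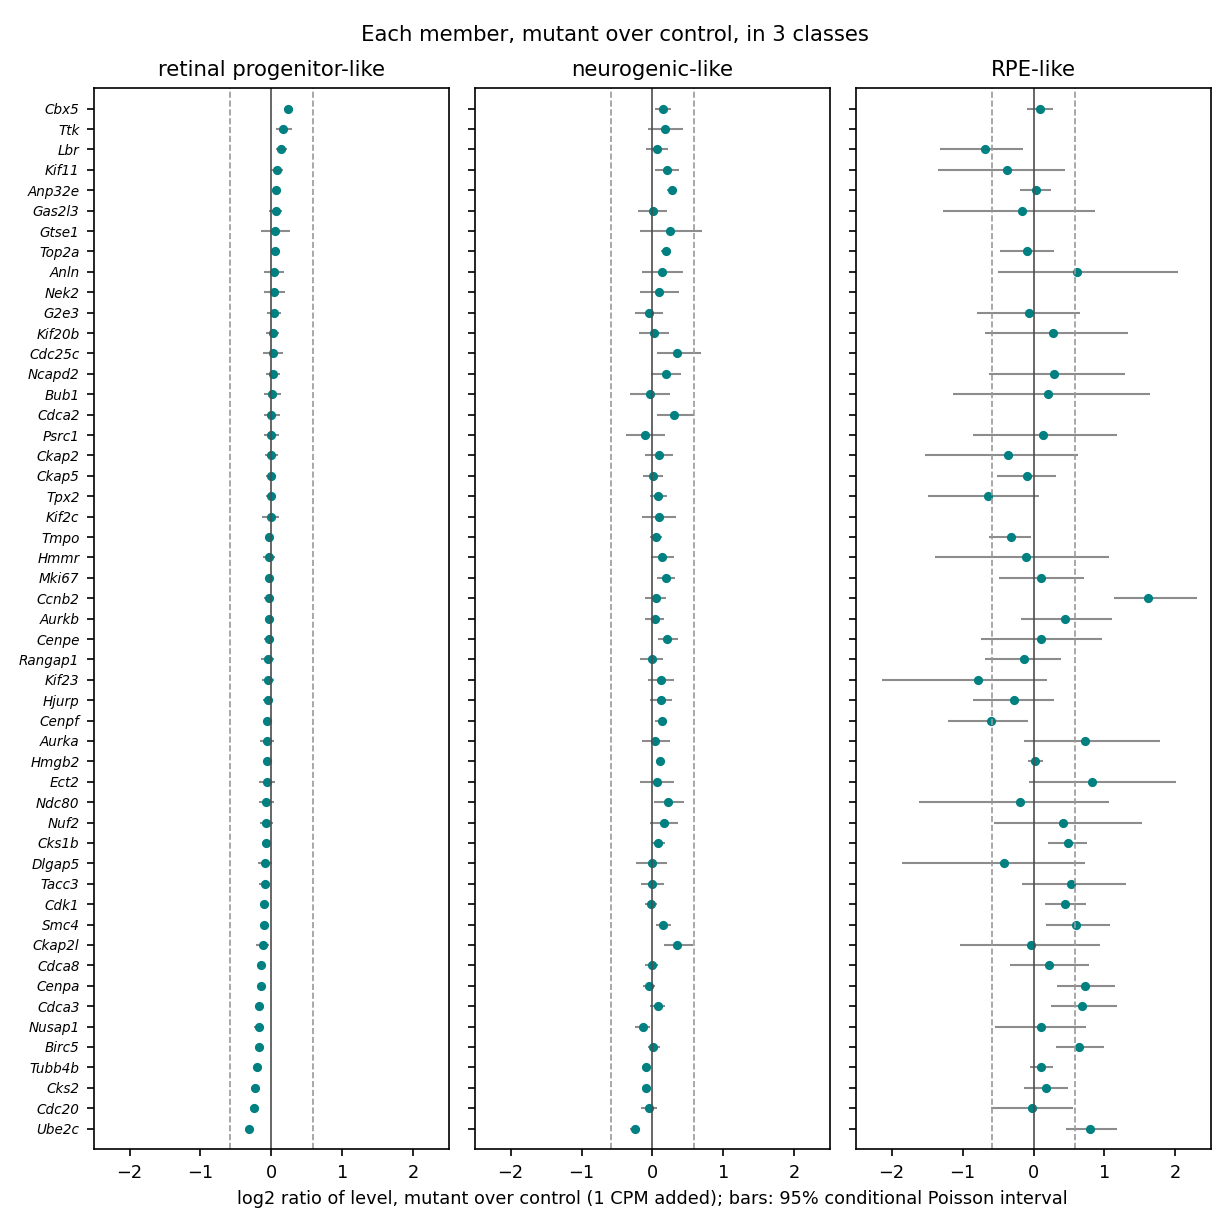
Log2 ratio of mutant over control level for each member, ordered by its value in progenitors, in retinal progenitor-like, neurogenic-like and RPE-like cells, with 95% intervals for counting error and dashed lines at 1.5-fold, for members with at least 20 UMIs in the class. The ratios span -0.31 to 0.24 in retinal progenitor-like, -0.25 to 0.35 in neurogenic-like and -0.78 to 1.62 in RPE-like cells.

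RPE-like cells, the class in which Myrf was lowered, had few member UMIs, unevenly spread over cells. The class had 496 control and 215 mutant cells with medians of 2592 and 9963 UMIs, so the mutant class was smaller and its median cell deeper. The members summed to 1885 CPM in control and 2076 CPM in mutant cells, a log2 ratio of 0.14 (0.09 to 0.19). Once cells were thinned and weighted alike it was -0.18 (-0.34 to -0.02), or -0.10 (-0.36 to 0.16) for restricted members, an interval that includes 0. With at least 20 UMIs over both libraries, 45 members were measured, of which 9 were 1.5-fold or more higher and 4 lower, where 7.48% and 11.6% of all measured genes were. With predicted doublets left in, 23 of 51 were higher and none lower, where 7.45% and 10.6% of genes were.

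Ccnb2 had the highest ratio, with 36 UMIs in control and 89 in mutant cells, or 11.0 and 36.0 CPM, for a log2 ratio of 1.62 (1.13 to 2.31). It was found in 23 of 496 control and 33 of 215 mutant cells, and its ratio was -3.83 among the 208 control and 42 mutant cells with at most 2000 UMIs. Ect2 followed at 4.60 and 8.91 CPM (0.82) and Ube2c at 34.6 and 61.2 CPM (0.80), although Ube2c stood at -0.15 after thinning. The lowest were Kif23 at 7.66 and 4.05 CPM (-0.78), Lbr at 25.4 and 15.4 CPM (-0.69) and Tpx2, which nucleates spindle microtubules, at 14.4 and 8.91 CPM (-0.64). Cdk1 was at 60.1 and 82.2 CPM (0.45), while Mki67 at 16.9 and 18.2 CPM (0.11) and Top2a at 43.5 and 40.9 CPM (-0.09) were close.

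Restricted member UMIs were in 361 of 496 control and 162 of 215 mutant cells, but unevenly. The 5 cells with most UMIs of the 41 restricted members held 626 of 1900 such UMIs (32.9%) in control and 718 of 1790 (40.1%) in mutant cells, where 1 cell held 255. In cells thinned to 1000 UMIs, 19 of 396 control and 14 of 191 mutant RPE-like cells had at least 5 such UMIs. Those cells had fewer UMIs of the 12 RPE markers, with means of 12.8 in the control and 6.86 in the mutant, than cells without any such member UMI, with 29.2 and 21.6. They were also shallower, with medians of 2659 against 9414 UMIs in the control and 4360 against 12875 in the mutant. Their retinal progenitor marker UMIs were higher, 2.84 against 1.60 in the control and 4.21 against 1.85 in the mutant, beside 7.04 and 7.33 in retinal progenitor-like cells. Endothelial marker UMIs were higher too, 0.421 against 0.0976 and 0.429 against 0.0317, beside 0.348 and 0.315 in retinal progenitor-like cells. Mesenchyme marker UMIs, at 2.37 against 2.74 and 0.357 against 0.365, were not higher in these cells, beside 1.66 and 0.259 in retinal progenitor-like cells, so the libraries themselves differed in mesenchyme RNA. The 131 control cells with 1 to 4 such member UMIs were shallow as well, with a median of 2008 UMIs. They had 5.70 mesenchyme, 0.275 endothelial and 1.56 progenitor marker UMIs. The 51 such mutant cells had a median of 10451 UMIs and 0.588, 0.0588 and 1.94 of these markers. The part of depth, doublets or free RNA in these values was not tested.

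The classes outside the eye field, where the Rx>cre transgene is not known to act, also differed between the libraries. In endothelial-like cells the members summed to 2864 and 2552 CPM (-0.17), or -0.81 (-0.98 to -0.65) after thinning, with none of 49 measured members higher and 4 lower, where 3.73% and 8.25% of genes were. In mesenchyme-like cells they summed to 1337 and 1627 CPM (0.28), or 0.16 (0.05 to 0.26) after thinning and 0.05 (-0.13 to 0.23) for restricted members, with 8 of 51 higher and none lower, where 1.82% and 1.40% of genes were. Cdca2 at 2.03 and 4.90 CPM (0.96) and Kif11, a spindle motor, at 7.76 and 15.5 CPM (0.91) had the highest ratios there. In white blood-like cells 15 of 47 were higher and 2 lower, where 7.89% and 12.9% of genes were, led by Cdc20 at 32.6 and 75.8 CPM (1.19), yet the summed ratio went from 0.46 to -0.31 after thinning. In surface epithelium-like cells 18 of 30 were higher and none lower, where 8.0% and 11.9% of genes were, led by Nusap1 with 9 and 31 UMIs (2.21), and the ratio went from 0.52 to -0.26, or 0.05 (-0.39 to 0.49) for restricted members. That class joined a cluster led by Krt14, with 99 control and 37 mutant cells, and a deeper cluster led by Krt13, with 34 and 30.

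The highest member ratio was 2.21 in surface epithelium-like cells, 1.62 in RPE-like cells and 0.24 in retinal progenitor-like cells. These classes held 2456 and 2361, 6149 and 5126, and 335844 and 388861 member UMIs in control and mutant. Counting error spreads single ratios more widely where UMIs are few, so these extremes do not rank the classes. The mutant cells of the blood and vessel classes were fewer and deeper, as 69 against 266 white blood-like cells with medians of 8565 and 2751 UMIs show, and the part of depth was not tested beyond the thinned values. In photoreceptor-like cells 2 of 44 measured members were higher and 2 lower, where 4.46% and 4.25% of genes were, and in amacrine-like cells 7 of 38 were higher and 1 lower, where 4.82% and 3.50% were. In red blood-like and pericyte-like cells, with 29 and 21 members measured, 1 and 3 were higher and 2 and 2 lower, where 18.6% and 9.55% of genes were higher and 8.16% and 7.62% lower.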

How the data were processed

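Cells were from eye cups at postnatal day 0, 1 library per genotype. Per the labels and the study's methods, the authors made the deposited UMI counts with Cell Ranger 7.1.0 on mm10 and analysed them in Seurat 4.1.1; the matrix headers name software version 3.1.0. The annotation release is not given in the sources used here. Raw counts were used. Barcodes with at least 200 genes and at most 15% mitochondrial UMIs were kept, and doublets were removed with Scrublet (scanpy 1.11.5), 11.6% of control and 10.1% of mutant cells. Its own threshold marked 0% and 5.46%, so the highest scores were removed up to an expected 0.8% per 1000 cells. Cells were integrated and clustered in Seurat 5.3.0 (2000 variable genes less cell cycle, histone and sex-linked genes and Myrf, 1952 left; 30 components; resolution 1) in R 4.3.3. A cluster was named from at least 3 markers, each in 10% of cells and 2 times the median over clusters, a limit set with the clusters in view.

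Levels are UMIs summed by class and library, per 1e6 UMIs of that class (CPM). Log2 ratios of single genes, and counts past a fold, had 1 CPM added; folds between classes or gates are plain ratios of CPM. Genes needed 20 UMIs over both groups compared to be counted. Intervals are exact (Poisson, conditional Poisson or Clopper-Pearson, 95%), for counting error only; UMIs of 1 cell are not independent, so they are too narrow. They were computed without the added 1 CPM. Library totals were 79017429 and 76272867 UMIs, and 80.2% and 92.1% of barcodes had over 2000 UMIs. Thinning used 1000 UMIs. Scripts ran in Python 3.11.15 (numpy 2.4.6, scipy 1.17.1) and were tested on simulated data.

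Counts are of 3′ tags and are not divided by gene length, so levels are not ranked between genes, and Myrf tags need not lie in the deleted part. The members and lists were chosen with earlier results of these data known. Genes named by rule were the 2 with most UMIs in control retinal progenitor-like cells in each role, the 3 highest and 3 lowest in each measure (progenitor over photoreceptor with 1 CPM added, timing, and mutant over control in 3 classes), and Mki67, Top2a, Cdk1 and Ccnb2. Other names, the values within gates, the concentration in single cells and the motif positions were chosen after values were seen. Alternatives covered depth, mitochondrial, doublet and sex filters, clustering, thinning, scaling and the list itself. Cell annotations by the authors were not used here.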

Additional observations from a re-analysis of the deposited data

How the results depend on the processing

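Of 229 alternative values of the summed ratios, medians, counts and shares, 148 stayed within their limits, 75 moved and 6 reversed. Of 348 for named genes, 245 stayed, 87 moved and 16 reversed. The cause was not tested. Ratios below are log2 of mutant over control, in the order sum, median of members, members 1.5-fold higher and lower, and share of cells with 2 member UMIs, and the contrast is the log2 of progenitor over photoreceptor.

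With only cells of at most 2000 UMIs (127 control and 110 mutant retinal progenitor-like, 139 and 74 neurogenic-like, 208 and 42 RPE-like cells) the progenitor values were -0.44, -0.46, 7 and 14, and -0.03; the neurogenic values -0.90, -1.0, 1 and 17, and -0.22; the RPE sum -0.07 with 2 higher; and the contrast 2.69 in the control and 2.11 in the mutant. There Cdc25c was -4.86, Mki67 -3.11 and Top2a -0.84 in neurogenic-like, Ccnb2 -3.83 in RPE-like and Top2a -0.07 in progenitor-like cells. Of 11 RPE members measured at that limit 2 were higher and 4 lower, where 18.3% and 26.6% of genes were. With at most 5% mitochondrial UMIs the progenitor sum and median were -0.13 and -0.10 (Top2a -0.00), and the neurogenic -0.10 and -0.08. The RPE sum and median were 0.50 and 0.49, and the control contrast 2.92. Of 33 RPE members measured with that filter 14 were higher and 3 lower, where 11.1% and 15.7% of genes were. Without doublet removal the sums were -0.04, 0.08 and 0.41 in progenitor, neurogenic and RPE-like cells, with contrasts of 2.28 and 2.15. The RPE median was then 0.54, with 23 of 51 members higher and 0 lower, where 7.45% and 10.6% of genes were. With libraries merged without integration the sums were -0.07, 0.11 and -0.09, with contrasts of 2.93 and 2.72. Of 44 RPE members measured in that clustering 3 were higher and 6 lower, where 7.13% and 12.9% of genes were.

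Among cells with Xist only, progenitors gave 0.16, 0.20, 4 higher and a share of -0.05; neurogenic-like cells 0.13, 0.29, 13 higher and -0.04; RPE-like cells 0.30 with 0 lower; and contrasts were 2.76 and 2.70. Reversed genes were Cdc20 0.12, Cdk1 0.04, Cks2 0.20 and Ube2c 0.42 in progenitors, Ube2c 0.71 in neurogenic-like and Lbr 0.03 in RPE-like cells. Of 28 RPE members measured with Xist only 8 were higher and 0 lower, where 14.3% and 13.5% of genes were. Among cells with Y-linked UMIs only, progenitors gave -0.27 and -0.27 (Top2a -0.03, Ttk -0.03), with 2 of 51 lower, where 4.58% of genes were. Neurogenic-like cells gave 0.16 (Nusap1 0.05) and RPE-like cells 0.24, and contrasts were 3.01 and 2.51. Of 27 RPE members measured with Y-linked UMIs only 8 were higher and 1 lower, where 9.98% and 19.4% of genes were. Without the 10 broadly made members the sums were -0.11, 0.03 and 0.32, the RPE share -0.71 and the contrasts 3.91 and 3.61. Thinned before summing, they were -0.06, 0.12 (median 0.18, 5 higher) and -0.18 (3 higher, 2 lower, Ube2c -0.15), with contrasts of 2.68 and 2.47.

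Scaling to the median of all genes gave -0.13 and 0.01 in progenitor and neurogenic-like cells and a control contrast of 2.93. With cycle genes in the clustering the RPE sum was 0.05 and the control contrast 2.92. Adding 5 CPM left 5 of 45 RPE members higher and 0 lower, where 4.53% and 7.91% of genes were. Asking for 4 member UMIs gave an RPE share of -0.75, and resolution 0.5 gave contrasts of 2.99 and 2.76. No paired analysis was possible because each genotype has 1 library. Having 1 library per genotype limits all comparisons. Few cells and unequal depth (medians of 2592 and 9963 UMIs in RPE-like cells) limit those outside the neural retina, whereas retinal progenitor-like cells held 335844 and 388861 member UMIs.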
